A study of Mus musculus with 8 samples.

Results

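The comparison described here set mouse bone marrow-derived macrophages that received LPS, IL-4 and IL-13 together against untreated macrophages of the same series. LPS is a component of the outer wall of Gram-negative bacteria, and IL-4 and IL-13 are cytokines of T helper cells and other cells of type 2 immunity. The comparison used 4 of the 8 arrays, 2 titled LPS/IL4/IL13 and 2 titled Control, and all 19938 genes that the series measured with a probe set of exactly 1 gene symbol, each gene by its brightest probe set. The cells were taken after 6 h of treatment, and their total RNA was measured on Affymetrix arrays of mouse genes, with 1 array for each sample. The other 4 arrays held macrophages given IFN-gamma and LPS (2 arrays) or IL-4 and IL-13 (2 arrays) for the same time. They are used below to place each gene among the 4 groups. All 8 arrays entered the model that gave the SE and p-values, so these 4 also shape the calls. No group received LPS alone, so a difference between LPS/IL-4/IL-13 and untreated cells holds the action of all 3 agents together. Against IFN-gamma/LPS the combination differs both by the lack of IFN-gamma and by the presence of IL-4 and IL-13. These cannot be told apart in any difference from that group. Strain, age, dose and the number of animals are not stated in the labels, nor do they say whether the arrays of 1 group stem from different cultures. A p-value here reflects the spread among these arrays alone, and that spread may be technical.

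Macrophages sense LPS through the receptor complex of TLR4, MD-2 and CD14, which acts through the adaptors MyD88 and TRIF to turn on NF-kB, AP-1 and interferon regulatory factors. IL-4 and IL-13 bind receptors that share the IL-4 receptor alpha chain and activate the transcription factor STAT6, which drives genes of alternative activation such as Arg1, Retnla and Chil3. Exposure to bacterial products is linked to nitric oxide and inflammatory cytokines, and exposure to type 2 cytokines to arginase, tissue repair and chitinase-like proteins. A combined treatment puts both kinds of input on the same culture.

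Values are log2 signal as deposited, on which a difference of 1 is a 2-fold change. Changes are given as the mean of the LPS/IL-4/IL-13 arrays minus the mean of the untreated arrays ± SE from limma (n = 2 arrays per group). A gene is said to have risen or fallen where its limma p, adjusted by Benjamini-Hochberg over the 19938 genes, was under 0.05. The array medians lay between 6.12 and 6.20, the arrays of a group correlated across genes at r = 0.9974 (untreated) and 0.9941 (LPS/IL-4/IL-13), and the median SE of the change was 0.118. Genes are not independent replicates in that correlation. The arrays came without detection calls, so no level marks a gene as absent. In RNA from whole cultures, fewer cells of a type and less RNA per cell cannot be told apart.

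The combined treatment raised 4042 genes, 20.3% of those tested, and lowered 5057, or 25.4%. The increases were fewer, with a longer tail of large changes. At least 2-fold changes numbered 1032 upward and 1736 downward, while changes of at least 4 on the log2 scale numbered 94 upward and 10 downward. Beyond a change of 5 lay 44 genes that rose and 1 that fell, and beyond 6 lay 19 genes that rose and 0 that fell. The median untreated gene lay at 6.3 and all values between 1.46 and 13.71, so that gene had more room to rise than to fall. Whether this range shaped the longer tail was not tested. The untreated and treated arrays did not overlap for 14686 genes, 73.7% of those tested, and for 9098 of the 9099 genes called. The exception was Shisal2a, named because of its values, which read 5.01 and 5.61 in the untreated arrays and 5.59 and 6.02 in the treated ones. Its call was lost without untreated replicate 1 (0.20), LPS/IL-4/IL-13 replicate 2 (0.28) or either IL-4/IL-13 array (0.50). An unadjusted p under 0.05 was reached by 10423 genes. Without untreated replicate 1, 2602 genes rose.

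The direction of change varied with the brightness of a gene. The genes were ranked by mean signal over all 8 arrays and split into 10 equal parts. In the dimmest part 6.4% rose and 1.3% fell, in the seventh part 16.1% rose and 51.4% fell, and in the brightest part 40.1% rose and 38.3% fell. The median change over all genes was 0.09. Of the 4042 genes that rose, 1084 were among the dimmest 40%, and 672 of the dimmest genes were called higher after quantile normalization.

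**Figure D1:**
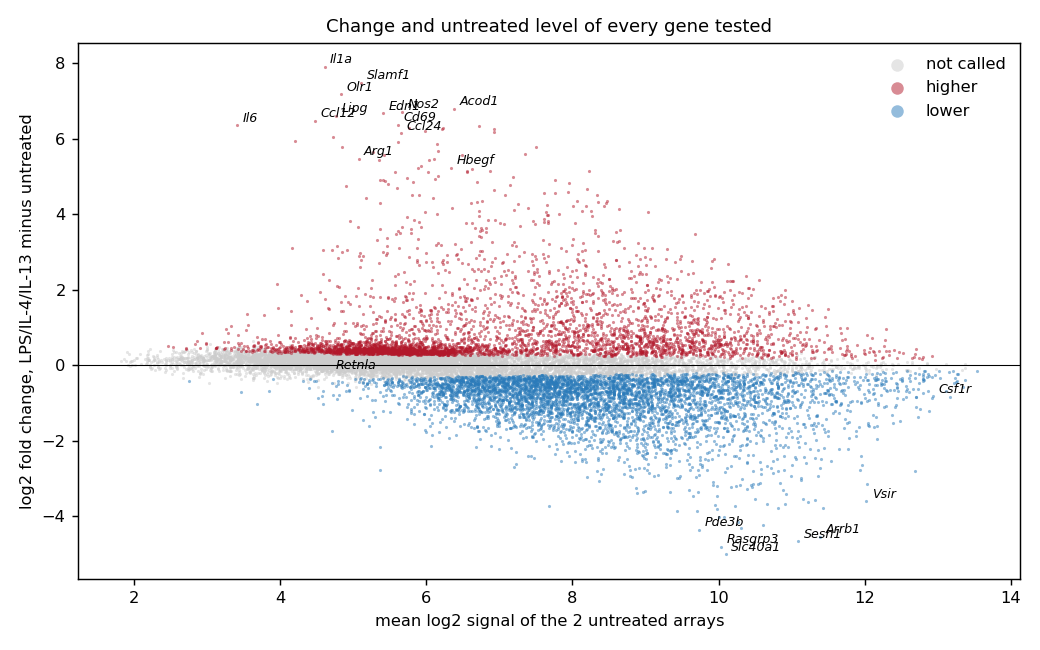
Change under LPS/IL-4/IL-13 (log2 signal minus untreated, vertical axis) against the mean log2 signal of both untreated arrays (horizontal axis), with 1 point per gene and colours for genes called higher, called lower or not called. The longest rises, such as Il1a and Il6, start from dim genes, and the longest falls, such as Slc40a1 and Arrb1, start from bright ones.

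Of the 10 largest rises, 9 were in genes below the median untreated signal of all genes, and Acod1 lay just above it. Il1a, which encodes the alarmin IL-1 alpha, read 4.55 and 4.66 in the untreated arrays and 12.54 and 12.48 in the treated ones. Slamf1, a self-binding receptor of activated leukocytes that also takes part in uptake of bacteria, read 5.03 and 5.19 untreated and 12.62 and 12.59 treated. Olr1, a receptor for oxidised low-density lipoprotein, went from 4.87 and 4.78 to 12.05 and 11.96. In each of these genes every treated array stood at least 7.09 log2 units above every untreated one. Acod1, whose enzyme makes itaconate, went from 6.12 and 6.64 to 13.19 and 13.18, and its difference from the IFN-gamma/LPS group did not pass (-0.05 ± 0.14, limma adjusted p = 0.894). Nos2, the inducible nitric oxide synthase, went from 5.73 and 5.60 to 12.34 and 12.44. Edn1, the gene of the vasoconstrictor endothelin, went from 5.32 and 5.50 to 12.07 and 12.11. That untreated and treated arrays do not overlap was a condition for naming these genes and is not a separate result.

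Lipg, an endothelial lipase, read 4.61 and 4.91 untreated and 11.45 and 11.31 treated and rose 98.4-fold (6.62 ± 0.15). Ccl12, a chemokine that draws monocytes, read 4.53 and 4.41 untreated and 10.67 and 11.22 treated, and Cd69, an early marker of leukocyte activation, read 5.50 and 5.71 and 11.96 and 12.01. Il6 had the lowest untreated signal of the 10 largest rises, at 3.41 and 3.40, and reached 10.02 and 9.52 (82.4-fold, change 6.37 ± 0.14, limma adjusted p = 7.82e-12). Set beside the other treated groups, these 10 genes did not all behave alike. Slamf1 was 1.16 ± 0.12 above the IFN-gamma/LPS arrays and Edn1 1.15 ± 0.09 above, whereas Il6 was -2.53 ± 0.14 against them and Cd69 -0.67 ± 0.10. All 10 were higher than under IL-4/IL-13 alone, by between 4.79 (Olr1) and 7.76 (Il1a).

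Promoter sequence was available for 7 of these 10 genes, and stretches of 3 of them are shown because they hold a match to a short motif of the factors that the treatment is known to activate. The windows are from the strand of transcription, written 5′ to 3′ on build GRCm38.p6 as given by RefSeq, with the match in capitals. The motif searched as STAT6-like was TTCNNNNGAA, which reads the same on both strands, and the one searched as kappaB-like was GGGNNTTTCC or GGGNNNTTCC on either strand, forms that overlap each other. The Slamf1 window (chr1:171766954-171767023, plus strand) has a STAT6-like match that begins 148 bases before the start of the gene. The Edn1 window (chr13:42301261-42301330, plus strand) has one 185 bases before the start, and the Il6 window (chr5:30013040-30013109, plus strand) a kappaB-like match 44 bases before it.
Slamf1: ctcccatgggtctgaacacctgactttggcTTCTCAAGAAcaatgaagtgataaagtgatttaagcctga
Edn1: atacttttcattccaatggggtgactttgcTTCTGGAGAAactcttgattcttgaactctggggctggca
Il6: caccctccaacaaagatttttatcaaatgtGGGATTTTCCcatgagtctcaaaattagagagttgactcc

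Among the 100 genes with the highest change, 76 had a promoter entry, and 13.7% of their 95 promoters held a STAT6-like match within 250 bases before the start. The share was 5.4% over the 19177 promoters of all genes tested and 6.7% over the 104 promoters of the 100 genes with the lowest change. A kappaB-like match stood in 10.5% of promoters of the highest genes, 4.7% of those of all genes tested and 1.0% of those of the lowest genes. Both motifs together were found in 2.1%, 0.3% and 0.0%. A match describes letters in a window and is not evidence of binding, and these shares were not tested. Of the genes shown with a STAT6-like match, Slamf1 did not pass under IL-4/IL-13 alone against untreated cells (0.21 ± 0.12, limma adjusted p = 0.233). Edn1 rose there by 0.63 ± 0.09. Under IFN-gamma/LPS they rose by 6.34 ± 0.12 and 5.53 ± 0.09.

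The largest falls were in genes that lay well above the median gene in untreated cells. Slc40a1, which encodes the iron exporter ferroportin, read 10.09 and 10.11 in the untreated arrays and 5.19 and 4.98 in the treated ones, and fell 32.3-fold (-5.02 ± 0.11). Rasgrp3, an activator of Ras and Rap, went from 10.08 and 9.98 to 5.24 and 5.19. Sesn1, a stress gene induced by p53, went from 11.09 and 11.09 to 6.61 and 6.23. Untreated and treated arrays were far apart in each of these genes, the smallest gap being 4.48 log2 units. Arrb1, the beta-arrestin that ends signalling of G protein-coupled receptors, went from 11.48 and 11.31 to 6.96 and 6.72. Pde3b, which breaks down cyclic AMP, went from 9.75 and 9.71 to 5.31 and 5.42, and Pdcd4, a brake on translation, from 10.30 and 10.32 to 5.89 and 6.12. As with the rises, arrays that do not overlap were a condition for naming these genes.

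Arrdc3, an alpha-arrestin, read 10.62 and 10.60 untreated and 6.32 and 6.43 treated. Rnf144b, a ubiquitin ligase gene, read 10.32 and 10.20 and 6.06 and 6.16, Kctd12b read 10.14 and 10.02 and 5.88 and 6.23, and Otulinl fell to 6.23 and 5.75 (-4.02 ± 0.14). Against IFN-gamma/LPS, 5 of these 10 did not pass the test, among them Arrdc3 (-0.03 ± 0.10) and Rnf144b (-0.03 ± 0.13). Slc40a1, Pde3b, Pdcd4 and Kctd12b were lower under the combination, with differences of -0.46 to -0.72, and Otulinl was higher (0.47 ± 0.14). All 10 were lower than under IL-4/IL-13, with differences from -1.82 (Slc40a1) to -4.60 (Rnf144b).

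**Figure D2:**
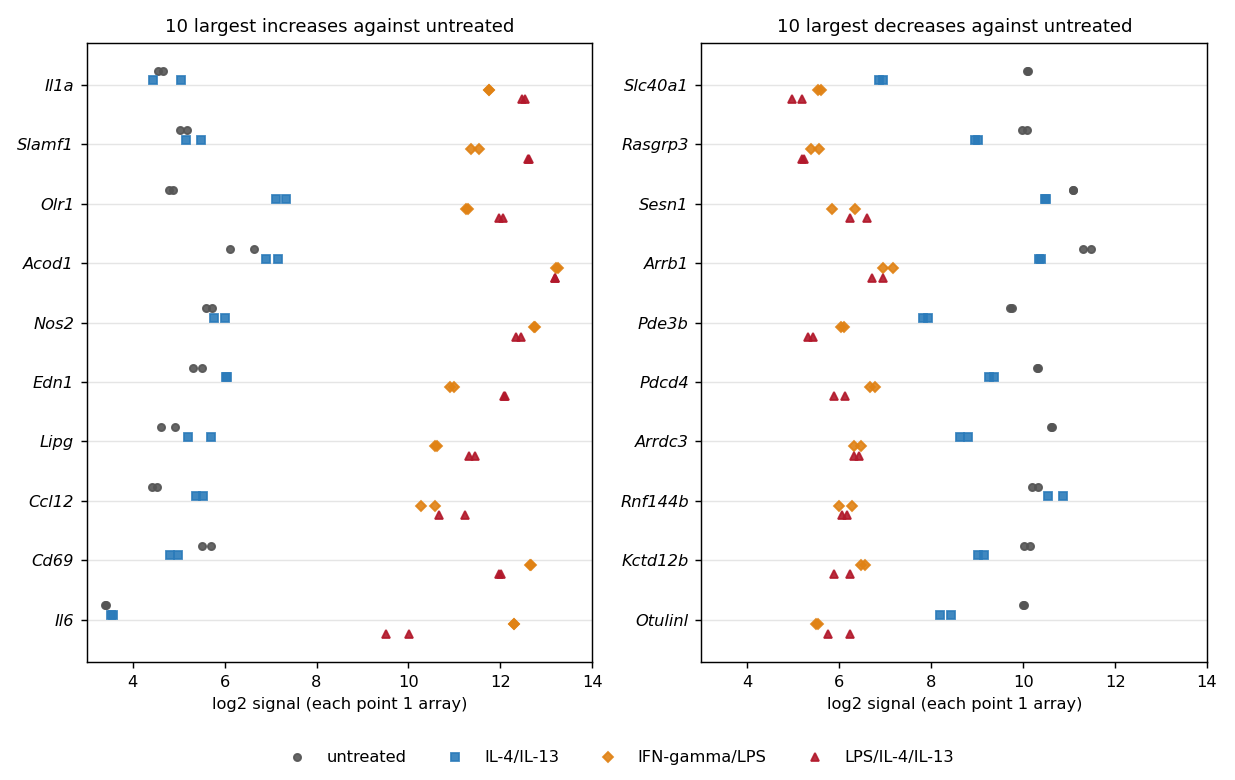
Log2 signal of each of the 8 arrays (horizontal axis) for the 10 genes with the largest rise and the 10 with the largest fall under LPS/IL-4/IL-13 against untreated cells, with 1 point per array and 1 colour and shape per group. The combination lies far from untreated in every gene drawn, Il6 is higher under IFN-gamma/LPS than under the combination, and Slc40a1 also reads lower under IL-4/IL-13 than in untreated cells.

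Beyond single genes, 38 lists covering pathways, cell functions and cell types were described, with 801 genes of which 731 were measured. Each list is given by its counts and, except for markers of cell types, its median change beside the median of 0.09 and the shares of 20.3% and 25.4% over all genes. The lists with the highest share of members that rose were the guanylate-binding proteins and immunity-related GTPases, the interferon-stimulated genes, the feedback regulators and the cytokines. The lists with the highest share that fell were cell cycle, fatty acid oxidation and TCA cycle, LXR and cholesterol efflux, and lysosome genes.

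**Figure D3:**
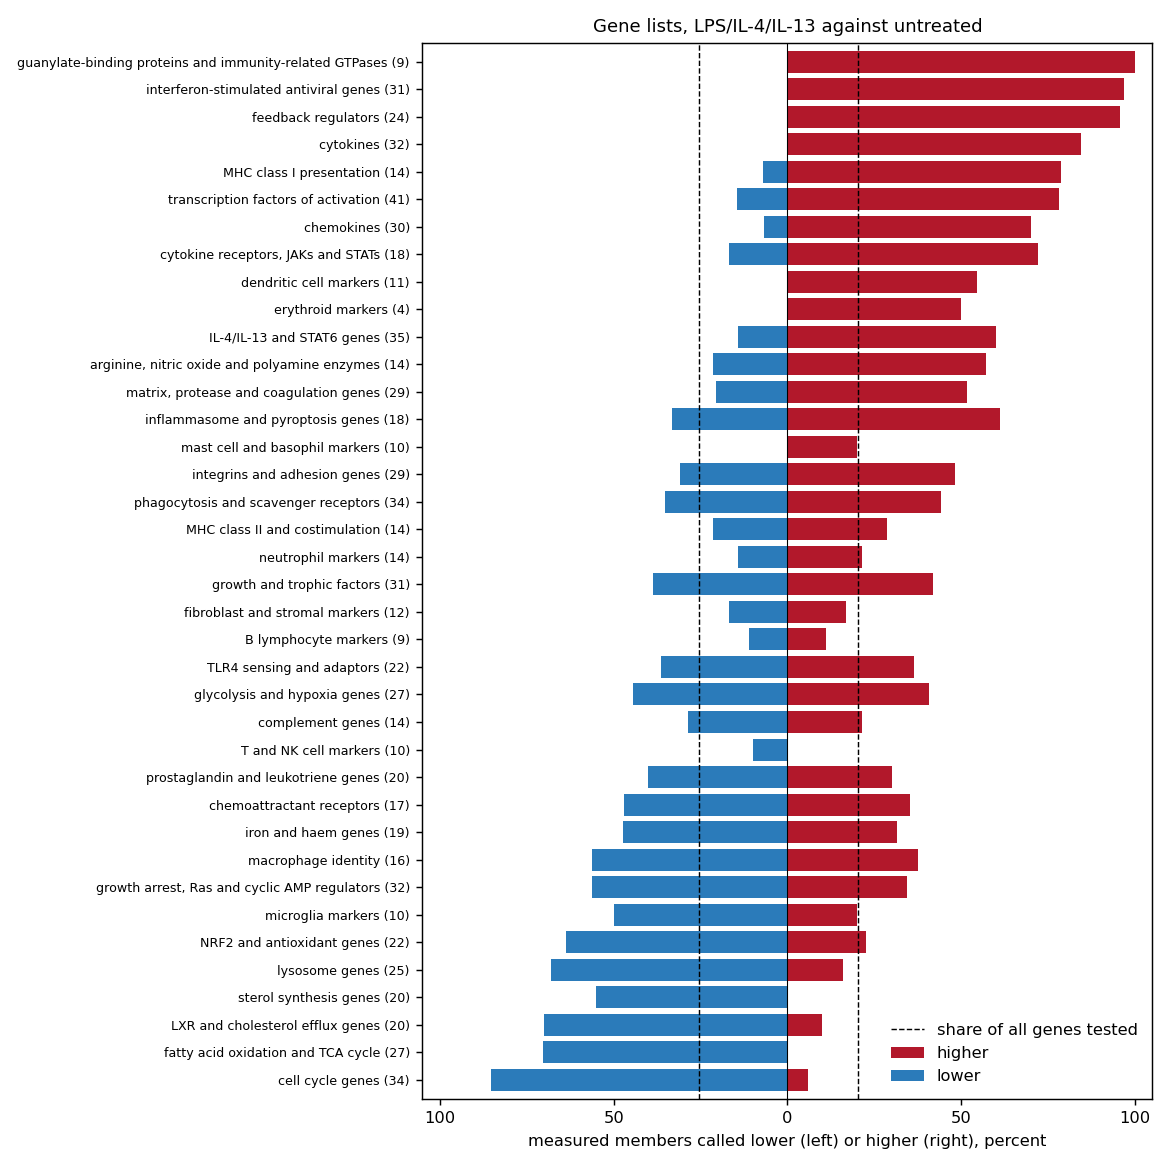
Percent of measured members called higher (right, red) or lower (left, blue) under LPS/IL-4/IL-13 against untreated for each of 38 gene lists, with the number of measured members in brackets and dashed lines at the shares over all genes tested. All 9 measured guanylate-binding protein and immunity-related GTPase genes were called higher, and 29 of 34 measured cell cycle genes were called lower.

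The list of TLR4 sensing and adaptor genes, which also holds sensors of other ligands, split evenly. The receptors and signal carriers of cytokines mostly rose. Of 22 genes measured in the TLR4 list, 8 rose and 8 fell, with a median of 0.06, and fewer fell without either untreated array. Tlr4 itself read 9.60 and 9.67 untreated and 10.45 and 10.16 treated (change 0.67 ± 0.10), and its co-receptor gene Cd14 read 11.34 and 11.34 and 11.96 and 11.73 (0.51 ± 0.08). The double-stranded RNA sensor gene Tlr3 (2.06 ± 0.08), Tlr1 (1.50 ± 0.09) and the adaptor gene Myd88 (1.23 ± 0.08) rose most. Tlr13, a sensor of bacterial ribosomal RNA, fell from 11.91 and 11.97 to 9.29 and 9.06, and Ticam2, which encodes the TRIF-related adaptor molecule that couples TLR4 to TRIF, fell from 9.04 and 8.97 to 6.60 and 6.43. The adaptors of the same receptor thus went opposite ways. Tirap (0.20 ± 0.09, limma adjusted p = 0.112) and Ly96, the MD-2 gene (0.09 ± 0.09, adjusted p = 0.485), did not pass.

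Among 18 cytokine receptor, JAK and STAT genes, 13 rose and 3 fell, with a median change of 0.45. Both chains of the type II IL-4 receptor rose. Il4ra read 10.37 and 10.37 untreated and 12.69 and 12.76 treated, and Il13ra1 read 7.58 and 7.43 and 10.43 and 10.19. Treated and untreated arrays of both genes were well apart, by changes of 2.36 ± 0.06 and 2.81 ± 0.10. The kinase gene Jak2 rose by 3.30 ± 0.10 and the interferon signalling gene Stat2 by 2.81 ± 0.09. Stat6, the factor downstream of these receptors, read 10.58 and 10.50 untreated and 9.52 and 9.57 treated and fell (-1.0 ± 0.07). Ifngr1, the ligand-binding chain of the IFN-gamma receptor, changed by -1.58 ± 0.07, and Stat4 fell as well (-0.78 ± 0.13). Ifnar2 (0.05 ± 0.06), a chain of the type I interferon receptor, did not pass.

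Transcription factors of activation mostly rose. Of 41 measured, 32 rose, 6 fell and the median change was 1.10. Batf2, a factor of the interferon response, read 6.66 and 6.68 untreated and 10.09 and 10.51 treated. Nfil3 (3.27 ± 0.08), Batf (3.24 ± 0.10) and Fosl2 (2.61 ± 0.08), all of the basic leucine zipper class, followed. Myc read 7.42 and 7.52 untreated, 9.87 and 10.04 under the combination and 6.75 and 6.87 under IFN-gamma/LPS, so that the combination arrays lay above the untreated ones and the IFN-gamma/LPS arrays below them. Egr2, a gene known to respond to IL-4, had the same order, with 8.42 and 8.57 untreated, 10.36 and 10.54 under the combination and 7.70 and 7.82 under IFN-gamma/LPS. Cebpa, a myeloid lineage factor, fell from 8.89 and 8.59 to 6.29 and 6.24, and Pparg, a lipid-sensing nuclear receptor, fell from 11.05 and 10.92 to 9.87 and 9.83. Fos (0.01 ± 0.12) did not pass. The brighter of the pair of Irf1 probe sets gave 2.06 and the other 0.76.

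Genes that restrain signalling rose almost as a block. Of 24 feedback regulators, 23 rose and 0 fell, with a median change of 2.34, and 1 did not pass, the deubiquitinase gene Cyld (-0.11 ± 0.10). Pdcd1lg2, the gene of the T cell-inhibiting ligand PD-L2, read 4.70 and 4.98 untreated and 10.63 and 10.61 treated. Socs3, which restrains JAK signalling downstream of IL-6, read 6.35 and 6.63 and 12.12 and 11.99. Cish, a STAT5-driven member of the same family, read 5.50 and 5.44 and 10.29 and 10.25. All 3 were also higher than in the IFN-gamma/LPS group, by 3.56 ± 0.11, 0.41 ± 0.10 and 1.06 ± 0.09. Il1rn, the gene of the IL-1 receptor antagonist, rose by 4.53 ± 0.08, and Cd274, which encodes PD-L1, by 4.33 ± 0.08. Socs1 read 6.72 and 6.36 untreated and 10.18 and 10.42 under the combination, beside 10.40 and 10.56 under IFN-gamma/LPS and 10.28 and 10.28 under IL-4/IL-13. Its level under the combination differed from neither of the other treated groups by the test (-0.18 ± 0.12, limma adjusted p = 0.414, and 0.02 ± 0.12, adjusted p = 0.935). The probe sets of 2 genes disagreed in size: a dimmer Socs3 probe set gave 3.46 and a dimmer Socs2 probe set 1.43, where the ones used gave 5.57 and 3.02.

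Cytokine genes rose broadly but with an uneven pattern against the classical IFN-gamma/LPS treatment. Of 32 measured, 27 rose, 0 fell and the median change was 1.48. Against IFN-gamma/LPS, where 12.1% of all genes were higher and 7.62% lower under the combination, 5 cytokine genes were higher and 15 lower. The count of all genes higher than under IFN-gamma/LPS was 2407, 1558 without IFN-gamma/LPS replicate 1 and 1488 when the fit held just the 4 arrays of both groups. Il12b, which encodes a subunit common to IL-12 and IL-23, stood out in this comparison. It read 5.30 and 5.35 untreated, 6.49 and 6.59 under the combination and 12.29 and 12.31 under IFN-gamma/LPS, a difference of -5.76 ± 0.10 between the treated groups and a rise of 1.22 ± 0.10 over untreated cells. Il12a, which pairs with it, differed by -1.72 ± 0.12.

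Other cytokine genes were ordered differently over the treated groups. Il10, an anti-inflammatory cytokine, read 7.07 and 6.67 untreated, 11.94 and 12.10 under the combination and 11.02 and 11.05 under IFN-gamma/LPS, and so was higher than in both (5.15 ± 0.14 and 0.99 ± 0.14). Il19, a cytokine of the IL-10 family, read 5.20 and 5.61 untreated and 10.37 and 10.24 treated, against 6.17 and 6.07 under IFN-gamma/LPS and 5.64 and 5.66 under IL-4/IL-13. Both combination arrays stood at least 4.07 log2 units above every array of the other groups. Il1b read 7.96 and 7.91 untreated and 12.54 and 12.54 treated, and its difference from IFN-gamma/LPS did not pass (0.10 ± 0.11, limma adjusted p = 0.698). Tnf rose to 12.15 and 12.30 from 8.25 and 8.29, below the IFN-gamma/LPS arrays by the test (-0.71 ± 0.08). Csf1, the macrophage growth factor, rose by 2.08 ± 0.09 and was also lower than under IFN-gamma/LPS (-1.80 ± 0.09). Small rises were called for the interferon beta gene Ifnb1 (0.32 ± 0.12) and for Lif (0.46 ± 0.11), both at low signal. The Ifnb1 call was lost without any 1 array except untreated replicate 2 (0.21 to 0.39), and the Lif call without untreated replicate 2 (0.38). The granulocyte-macrophage growth factor gene Csf2 (0.16 ± 0.12) and Tslp (0.32 ± 0.15) did not pass.

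Most chemokine genes rose. Of 30 measured, 21 rose and 2 fell, with a median change of 1.55. Cxcl9, which draws T cells through CXCR3, read 5.91 and 6.53 untreated and 12.48 and 12.55 treated. Ccl7, a monocyte chemokine, read 6.83 and 7.01 and 13.05 and 13.15, and Ccl8, a related chemokine, read 5.45 and 5.09 and 10.94 and 10.92. The monocyte chemokines Ccl7 and Ccl8 were higher than in the IFN-gamma/LPS group (1.09 ± 0.08 and 1.86 ± 0.14), while Cxcl9 was lower (-0.69 ± 0.15). Cxcl10 rose by 5.16 ± 0.09, with no difference from IFN-gamma/LPS that passed (-0.11 ± 0.09, limma adjusted p = 0.544). The type 2 chemokine Ccl17 read 5.30 and 5.95 untreated and 8.79 and 8.68 under the combination, above 6.70 and 6.80 under IFN-gamma/LPS and 6.77 and 6.88 under IL-4/IL-13. Ccl22, which shares the receptor CCR4 with it, read 5.67 and 5.61 untreated and 9.12 and 9.17 under the combination, and was highest under IFN-gamma/LPS at 10.46 and 10.54. These chemokines of a common receptor were therefore ordered differently over the groups. Ccl6 (-0.66 ± 0.07) and Cxcl14 (-0.88 ± 0.13) fell, and Ccl20 (0.24 ± 0.14) and Ccl11 (0.11 ± 0.11) did not pass.

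Receptors for chemoattractants went in both directions, 6 up and 8 down of 17 with a median of 0.05. Without the dimmest 40% of genes 4 of 14 were up and 8 down, with a median of -0.51. Ccrl2, a chemerin-binding receptor of activated cells, read 7.69 and 7.58 untreated and 11.69 and 11.71 treated. Ccr1, a receptor for CCL3 and CCL5, read 4.05 and 4.26 and 7.27 and 7.28, and Ccr3, the receptor for CCL24 and CCL11, read 7.79 and 7.82 and 9.91 and 10.02. Both Ccr1 (1.32 ± 0.15) and Ccr3 (1.58 ± 0.13) were higher than under IFN-gamma/LPS. Cxcr4, the receptor for CXCL12, fell from 11.32 and 11.31 to 7.70 and 7.76. C5ar1, the receptor for the complement fragment C5a, fell by a smaller amount (-0.95 ± 0.08). C3ar1 (0.05 ± 0.05) and P2ry14 (0.17 ± 0.10) did not pass.

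Growth and trophic factors also split, with 13 of 31 up and 12 down and a median of 0.17. Without the dimmest 40% of genes 9 of 22 were up and 11 down, with a median of -0.16. Hbegf, a ligand of the epidermal growth factor receptor, read 6.38 and 6.30 untreated and 11.66 and 11.48 under the combination, against 8.39 and 8.38 under IFN-gamma/LPS and 7.49 and 7.43 under IL-4/IL-13. Inhba, a subunit of activins, read 6.86 and 6.61 untreated and 10.36 and 10.22 treated, and its difference from IFN-gamma/LPS did not pass (-0.24 ± 0.11, limma adjusted p = 0.194). Nrg1, a ligand of ERBB receptors, read 5.74 and 5.43 and 9.06 and 9.07. The level of Nrg1 was higher than in each of the other treated groups (1.38 ± 0.12 against IFN-gamma/LPS and 1.61 ± 0.12 against IL-4/IL-13). Gas6, the ligand of the receptors Axl and Mertk, fell from 11.26 and 11.12 to 9.19 and 9.05. Bmp2 fell from 8.76 and 8.66 to 6.86 and 6.77 and was lower than in either of the other treated groups (-2.31 ± 0.10 and -2.53 ± 0.10). Hgf, the hepatocyte growth factor gene, also fell (-1.47 ± 0.10).

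The platelet-derived growth factor genes did not move together. Pdgfa rose (1.33 ± 0.10) and Pdgfb fell from 9.84 and 9.79 to 8.26 and 8.44 (-1.47 ± 0.10). Pdgfb was nonetheless higher than under IFN-gamma/LPS (0.86 ± 0.10). Igf1 stayed bright, at 12.14 and 12.20 untreated and 11.90 and 12.03 treated, a small fall (-0.21 ± 0.07) whose call was lost without untreated replicate 1 (-0.24), untreated replicate 2 (-0.18) or LPS/IL-4/IL-13 replicate 1 (-0.14). The activin antagonist gene Fst rose by 0.63 ± 0.10, and was -3.18 ± 0.10 against the IFN-gamma/LPS arrays. The neurotrophin gene Bdnf (0.20 ± 0.12) and Inhbb (0.23 ± 0.11) did not pass.

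Genes known to respond to IL-4, IL-13 and STAT6 fell into separate sets under the combination. Of 35 measured, 21 rose, 5 fell and 9 did not pass, with a median change of 1.09, and the falls numbered 2 without untreated replicate 1 and 3 without LPS/IL-4/IL-13 replicate 2. Against IL-4/IL-13, where 14.1% of all genes were higher and 22.6% lower under the combination, 15 members were higher and 12 lower. Slc7a2, a transporter of arginine, read 6.28 and 6.14 untreated, 12.51 and 12.43 under the combination, 11.40 and 11.40 under IFN-gamma/LPS and 10.58 and 10.52 under IL-4/IL-13. Ccl24, the eotaxin-2 gene, read 5.76 and 5.54 untreated and 11.90 and 11.70 under the combination, with 8.64 and 8.71 and 7.82 and 7.74 in the same order. Arg1, arginase 1, read 5.0 and 5.14 untreated and 10.72 and 10.38 under the combination, with 5.37 and 5.45 and 8.58 and 8.46. In these 3 genes the combination arrays lay above every array of the other groups. Against IL-4/IL-13 the differences were 1.92 ± 0.08 for Slc7a2, 4.02 ± 0.11 for Ccl24 and 2.03 ± 0.12 for Arg1 (limma adjusted p = 5.27e-08). Ch25h, which makes 25-hydroxycholesterol, also rose far (5.69 ± 0.09), with no difference from IFN-gamma/LPS that passed (0.14 ± 0.09).

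Other members that read high under IL-4/IL-13 did not rise under the combination. Retnla, which encodes the secreted protein RELM-alpha, read 4.67 and 4.70 untreated, 10.15 and 10.33 under IL-4/IL-13 and 4.39 and 4.60 under the combination, a change of -0.19 ± 0.19 (limma adjusted p = 0.425) from untreated. Irf4, a transcription factor of alternative activation, read 6.76 and 6.37 untreated, 9.65 and 9.59 under IL-4/IL-13 and 6.26 and 5.96 under the combination, and so fell below untreated cells (-0.46 ± 0.15). Clec10a and Mgl2, paired C-type lectin genes, did the same. Clec10a read 7.54 and 7.29 untreated, 8.96 and 8.78 under IL-4/IL-13 and 5.95 and 5.61 under the combination, and Mgl2 changed by -0.42 ± 0.14 against untreated cells. Ppargc1b, a coactivator of mitochondrial genes, read 6.35 and 6.36 untreated, 9.04 and 8.91 under IL-4/IL-13 and 6.35 and 6.19 under the combination. The falls of Irf4 and Mgl2 below untreated cells were lost without untreated replicate 1 (-0.26 and -0.31) and without LPS/IL-4/IL-13 replicate 2 (-0.31 and -0.32). Each of these 5 genes stood between -2.51 and -5.75 against the IL-4/IL-13 arrays, differences that passed the test.

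The last set lay between. Mrc1, the mannose receptor gene, read 11.80 and 11.73 untreated, 12.31 and 12.09 under the combination and 12.47 and 12.50 under IL-4/IL-13, so that it rose (0.44 ± 0.08) and lay below the IL-4/IL-13 arrays (-0.29 ± 0.08). Chil3, a chitinase-like protein gene, read 5.33 and 5.29 untreated and 6.17 and 5.86 under the combination, and its difference from IL-4/IL-13 did not pass (-0.40 ± 0.17, limma adjusted p = 0.0984). Rasgrp1, a Ras activator, and Egr2 rose over untreated (4.90 ± 0.12 and 1.96 ± 0.09) and lay below the IL-4/IL-13 arrays (-1.0 ± 0.12 and -0.79 ± 0.09). Mmp12 (0.14 ± 0.07) and Itgax (0.28 ± 0.14) did not pass against untreated cells.

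**Figure D4:**
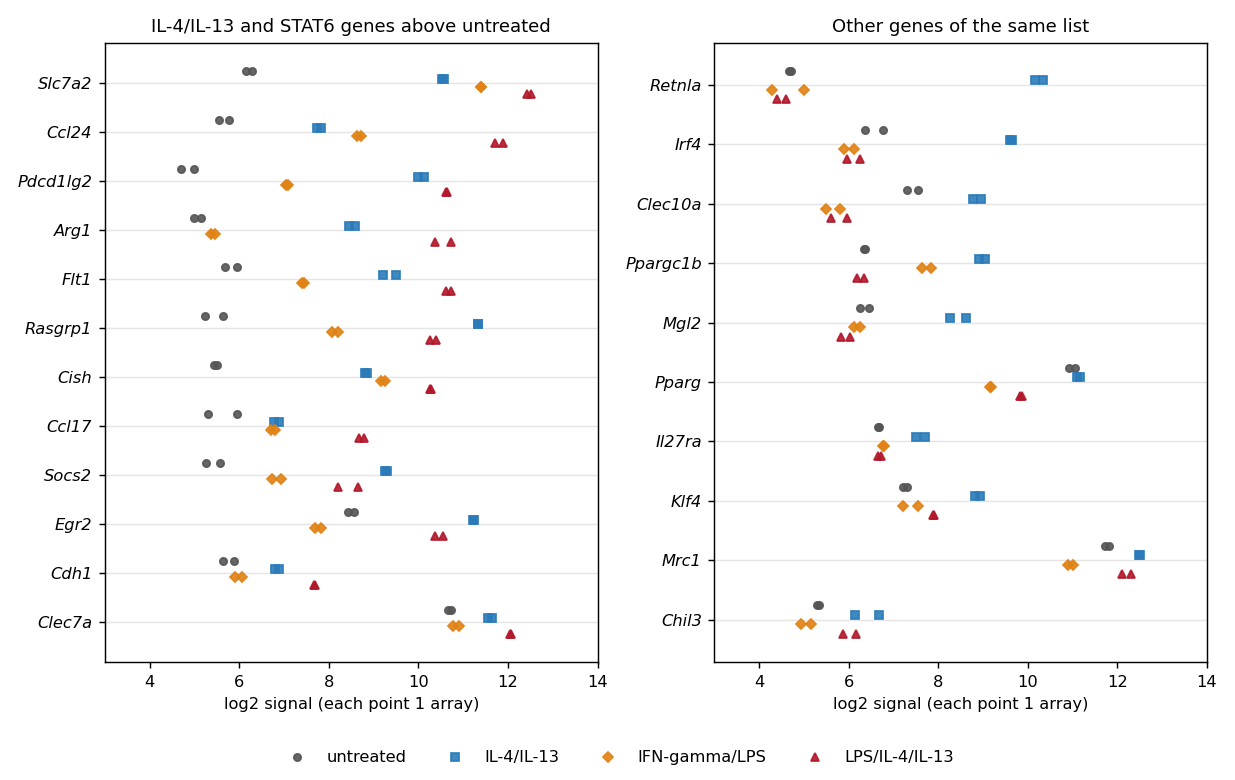
Log2 signal of each of the 8 arrays (horizontal axis) for 22 genes of the IL-4/IL-13 and STAT6 list, chosen after their values were seen, with 1 point per array and 1 colour and shape per group. Slc7a2, Ccl24 and Arg1 are highest under the combination, whereas Retnla, Irf4, Clec10a and Mgl2 are high under IL-4/IL-13 and at or below the untreated level under the combination.

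Interferon-stimulated antiviral genes rose in all but 1 of 31 members, although no interferon was added to these cultures per the labels. The median change was 2.75, and 0 fell. Mx1, a GTPase that blocks influenza viruses, read 6.59 and 6.52 untreated and 11.69 and 11.72 treated. Ifit2 read 8.29 and 8.12 and 12.90 and 12.83, and Mx2 read 5.96 and 5.65 and 10.46 and 10.18. Cmpk2, a nucleotide kinase gene next in size, rose by 4.35 ± 0.10. Against IFN-gamma/LPS, where 12.1% of all genes were higher and 7.62% lower, the list held 0 higher and 3 lower members of 31. The share of lower members was thus close to that of all genes, and the median difference was -0.04. The lower members were Ifih1 (-0.30 ± 0.07), Oas3 (-0.37 ± 0.11) and Parp14 (-0.24 ± 0.06). Ifi44l did not pass against untreated (0.23 ± 0.18).

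Guanylate-binding proteins and immunity-related GTPases defend cells against pathogens in vacuoles. Of the 18 genes listed 9 were measured, and all 9 of these rose, with a median change of 3.84. Gbp5 read 6.01 and 5.95 untreated and 12.17 and 12.22 treated, Gbp4 read 5.04 and 5.66 and 10.84 and 10.76, and Iigp1 read 6.63 and 6.47 and 11.70 and 11.66. Unlike in the antiviral list, 8 of these 9 were lower than under IFN-gamma/LPS, beside 7.62% of all genes. The largest difference was -1.84 ± 0.15 (Gbp4). These genes share much sequence, and probe sets of near-identical copies may partly read each other.

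Antigen presentation genes differed by class. In the MHC class I list 11 of 14 rose and 1 fell, with a median of 1.22. The peptide transporter gene Tap1 read 9.06 and 8.94 untreated and 11.39 and 11.46 treated, and the immunoproteasome genes Psmb10 (1.90 ± 0.08) and Psmb8 (1.89 ± 0.10) rose next most. Calr, an endoplasmic reticulum chaperone, fell (-0.38 ± 0.07), and B2m, already at 12.86 and 12.86 in untreated cells, did not pass (0.04 ± 0.05). Of 14 class II and costimulatory genes 4 rose and 3 fell, with a median of -0.02, which was 0.03 after quantile normalization. The rises included costimulatory and activation genes. Cd40 read 8.00 and 7.91 untreated and 12.88 and 12.70 treated, Cd86 read 8.15 and 8.01 and 11.12 and 10.96, and Cd83 rose by 2.83 ± 0.07. Cd80, which shares its receptors with Cd86, fell (-0.58 ± 0.10). The class II genes H2-Ab1 (0.10 ± 0.09) and H2-Aa (-0.13 ± 0.09) did not pass, and their transactivator gene Ciita fell from 7.27 and 7.14 to 6.23 and 6.43.

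Receptors for uptake changed in both directions. Of 34 phagocytosis and scavenger genes, 15 rose and 12 fell, with a median of 0.06. Besides Olr1, the C-type lectin gene Clec4e read 7.54 and 7.67 untreated and 12.24 and 12.08 treated, and the scavenger receptor gene Msr1 read 10.22 and 10.16 and 12.46 and 12.37. Fcgr2b, the inhibitory Fc receptor gene, read 10.89 and 10.83 and 12.74 and 12.71 and was higher than under IFN-gamma/LPS (1.58 ± 0.06). Stab1, a scavenger receptor for modified proteins and dying cells, fell from 11.76 and 11.78 to 9.62 and 9.47. Mertk, which engulfs apoptotic cells through Gas6, fell from 10.75 and 10.72 to 10.04 and 9.97 (-0.73 ± 0.08), and was lower than under IFN-gamma/LPS (-1.33 ± 0.08) and higher than under IL-4/IL-13 (0.78 ± 0.08). Its ligand gene Pros1 rose (1.19 ± 0.14), and Axl, a receptor of the same family, also rose (0.69 ± 0.09). Of 14 complement genes 3 rose and 4 fell, with a median of -0.06. Cfb, factor B of the alternative pathway, read 6.81 and 6.70 untreated and 10.41 and 10.26 treated, and C1qa fell (-0.96 ± 0.08).

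Both arms of arginine use rose in the same arrays. Of 14 arginine, nitric oxide and polyamine genes, 8 rose and 3 fell, with a median of 1.16. Nos2 reached 12.34 and 12.44 and Arg1 10.72 and 10.38 in the treated arrays. Levels of different genes cannot be set against each other on these arrays, so which enzyme was more abundant is not known. The mitochondrial arginase gene Arg2 read 6.45 and 6.24 untreated and 10.58 and 10.45 treated, above IFN-gamma/LPS (1.90 ± 0.16). Gch1, which makes the cofactor of nitric oxide synthase, rose by 2.51 ± 0.12, and Odc1, which makes polyamines from ornithine, by 2.40 ± 0.09. Asl (-0.87 ± 0.10) and Oat (-0.58 ± 0.08) fell, and Agmat (0.11 ± 0.13) did not pass.

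Of 20 prostaglandin and leukotriene genes, 6 rose, 8 fell and 6 did not pass, with a median of 0.12. Ptgs2, cyclooxygenase-2, read 6.80 and 7.05 untreated and 13.20 and 13.20 treated. Ptges, the prostaglandin E synthase, read 5.99 and 5.78 and 11.09 and 11.16, and Pla2g4a, which frees arachidonic acid, read 7.68 and 7.66 and 11.81 and 11.48. These 3 act in sequence on the way to prostaglandin E, and Ptges (1.63 ± 0.14) and Pla2g4a (1.09 ± 0.12) were higher than under IFN-gamma/LPS. Hpgd, which inactivates prostaglandins, fell from 12 and 11.92 to 9.33 and 9.28, and Hpgds, which makes prostaglandin D, from 11.27 and 11.37 to 8.87 and 8.86. Lta4h, of leukotriene B synthesis, fell too (-1.90 ± 0.12). Ptger2 (0.13 ± 0.12) and Ptgds (0.28 ± 0.12) did not pass.

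Inflammasome genes rose in 11 of 18 cases and fell in 6, with a median of 1.15. Casp4, the sensor of LPS in the cytosol, read 8.34 and 8.36 untreated and 11.90 and 11.67 treated, Mefv, the pyrin gene, read 5.34 and 5.59 and 8.98 and 8.69, and Nlrp3 rose by 2.51 ± 0.09. Other sensors fell. Nlrp1b read 8.67 and 8.58 untreated and 6.22 and 5.99 treated, and the ATP-gated channel gene P2rx7, whose opening activates NLRP3, fell from 10.40 and 10.39 to 8.30 and 8.29. The adaptor gene Pycard fell by a smaller amount (-0.68 ± 0.08).

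Matrix, protease and coagulation genes mostly rose, 15 of 29 against 6 that fell, with a median of 0.29. Mmp13, a collagenase, read 7.50 and 7.50 untreated and 13.29 and 13.29 treated. Serpinb2, an inhibitor of plasminogen activators, read 6.23 and 5.99 and 11.66 and 11.50, and Mmp14, a membrane-bound protease, read 6.15 and 6.16 and 11.19 and 11.16. Mmp14 was 1.78 ± 0.10 above IFN-gamma/LPS, whereas the difference for Mmp13 did not pass (0.15 ± 0.09). The endothelial protein C receptor gene Procr also rose far (4.65 ± 0.10). Timp2, an inhibitor of matrix proteases, fell from 11.38 and 11.30 to 9.79 and 9.68, while its relative Timp1 rose from 7.27 and 7.13 to 11.34 and 11.29. Thbd, the thrombomodulin gene, fell (-1.45 ± 0.14), and tissue factor, F3, rose (3.15 ± 0.13). Sparc (-0.23 ± 0.09) did not pass.

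In central metabolism, sugar genes split and mitochondrial oxidation genes fell. Of 27 glycolysis and hypoxia genes 11 rose and 12 fell, with a median of -0.04. The rises included transporters and regulatory enzymes. Slc2a6, a sugar transporter, read 8.99 and 8.99 untreated and 11.77 and 11.95 treated, and Pfkfb3, which makes the activator of phosphofructokinase, read 8.19 and 8.18 and 10.78 and 10.85. Hk3 (1.99 ± 0.08) and the lactate transporter gene Slc16a1 (1.87 ± 0.11) followed. Among the genes that fell were Pdk1 (-1.06 ± 0.13), a brake on pyruvate dehydrogenase, and Pfkm (-0.99 ± 0.12), and Ldha (-0.04 ± 0.06) did not pass. A second, dimmer Hk1 probe set gave 0.03 where the one used gave -0.52.

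Of 27 fatty acid oxidation and TCA cycle genes, 0 rose and 19 fell, with a median of -0.49. Hadh, an enzyme of fatty acid oxidation, read 10.17 and 10.12 untreated and 8.24 and 7.86 treated, and Cpt1a, the gatekeeper of fatty acid entry into mitochondria, read 10.94 and 10.90 and 9.08 and 8.93. Acadm (-1.63 ± 0.13) and Echs1 (-1.44 ± 0.10), of the same pathway, fell next most. Acadm was higher than under IFN-gamma/LPS (0.99 ± 0.13), while Cpt1a did not differ by the test (-0.09 ± 0.08). Over the list 10 of 27 members were higher than under IFN-gamma/LPS and 2 lower, beside 12.1% and 7.62% of all genes. Before treatment 25 of the 27 were brighter than the median gene, a range in which falls were common. Ppargc1a (0.19 ± 0.13) did not pass, and its probe sets differed in sign, at 0.19 and -0.10.

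Sterol synthesis genes fell in 11 of 20 cases with 0 that rose (median -0.33). LXR and cholesterol efflux genes fell in 14 of 20 cases and rose in 2 (median -0.68). In each list 17 of the 20 were brighter than the median gene before treatment, a range in which falls were common. After quantile normalization 8 sterol genes fell and 3 rose. Without untreated replicate 1, 7 sterol genes fell and 1 rose. Dhcr7, of the last step to cholesterol, read 7.48 and 7.25 untreated and 5.93 and 5.90 treated, and Ebp (-1.16 ± 0.10) and Msmo1 (-1.12 ± 0.12) came next. Sqle (-0.25 ± 0.11, limma adjusted p = 0.102) did not pass. Among the efflux genes, the transporter gene Abca9 fell from 9.89 and 9.75 to 7.36 and 7.29, and Rxra, the partner of LXR, from 9.08 and 8.86 to 6.62 and 6.53. Mylip, which degrades the low-density lipoprotein receptor, read 10.16 and 10.06 untreated, 8.50 and 8.38 under the combination and 10.41 and 10.39 under IFN-gamma/LPS, and Abca1 read 11.32 and 11.30, 9.84 and 9.71 and 7.91 and 7.95 in the same order. These LXR-driven genes were thus placed on opposite sides of the IFN-gamma/LPS group (-1.96 ± 0.08 and 1.85 ± 0.08). The 2 rises of the efflux list differed in size. Its largest change was 5.69, while the cholesterol-binding protein gene Npc2 rose slightly (0.36 ± 0.07).

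The iron exporter and the transferrin receptor fell, while a zinc and iron importer and secreted iron-handling genes rose. Of 19 iron and haem genes 6 rose and 9 fell, and the median (-0.30) and mean (0.04) of the list differed in sign. Beside the exporter Slc40a1, the transferrin receptor gene Tfrc fell from 9.08 and 8.96 to 7.10 and 6.75. Cp, ceruloplasmin, read 8.07 and 7.95 untreated and 11.43 and 11.29 treated, Slc39a14, a zinc and iron importer, read 6.83 and 6.96 and 10.21 and 10.13, and Lcn2, which binds bacterial siderophores, read 8.41 and 8.46 and 11.02 and 11.20. Slc39a14 was higher than under IFN-gamma/LPS (2.04 ± 0.13). Hmox1, haem oxygenase 1, read 11.37 and 11.31 untreated, 10.47 and 10.48 under the combination and 9.02 and 8.85 under IFN-gamma/LPS, and so lay above the IFN-gamma/LPS arrays (1.54 ± 0.08) while below untreated ones. The ferritin heavy chain gene Fth1 (-0.07 ± 0.04) did not pass.

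The NRF2 and antioxidant genes fell in 14 of 22 cases and rose in 5, with a median of -0.88, and 3 rose without untreated replicate 2. Slc7a11, which imports cystine, read 5.65 and 5.28 untreated and 8.54 and 8.72 treated, and mitochondrial superoxide dismutase, Sod2, read 10.12 and 10.14 and 12.84 and 12.78. Those were the 2 large rises. Mgst1, a glutathione transferase, read 9.90 and 9.89 and 8.23 and 7.85, and both subunits of glutamate-cysteine ligase, Gclc (-1.74 ± 0.10) and Gclm (-1.68 ± 0.09), fell. The transcription factor gene Nfe2l2, which encodes NRF2, fell (-0.89 ± 0.07), and Nqo1 (-0.17 ± 0.11) did not pass.

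Regulators of growth arrest, Ras and cyclic AMP fell in 18 of 32 cases and rose in 11, with a median of -0.53. This list was drawn up around genes that already stood among the largest falls, so its counts are not independent of them. Besides Rasgrp3, Sesn1, Arrb1, Pde3b and Pdcd4, the adenylate cyclase genes Adcy9 (-2.17 ± 0.10) and Adcy7 (-1.85 ± 0.10) and the G protein regulators Rgs18 (-2.93 ± 0.08) and Rgs2 (-2.47 ± 0.11) fell. All 3 Gadd45 genes, which act in growth arrest and DNA damage, rose. Gadd45a read 7.23 and 7.17 untreated and 10.19 and 9.72 under the combination, with 7.13 and 6.89 under IFN-gamma/LPS and 6.37 and 6.26 under IL-4/IL-13. Gadd45b rose by 3.76 ± 0.08, with no difference from IFN-gamma/LPS that passed (-0.17 ± 0.08). Rasgrp4 (0.23 ± 0.10) did not pass.

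Cell cycle genes fell almost throughout, 29 of 34 with a median of -0.95, and 2 rose. Ccna2, a cyclin of S phase and mitosis, read 8.80 and 8.97 untreated and 6.71 and 6.39 treated, E2f1, which drives entry into S phase, read 9.52 and 9.53 and 7.32 and 7.63, and the checkpoint kinase gene Bub1b read 7.89 and 8.01 and 5.95 and 5.87. The members that rose were the D-type cyclins Ccnd2, from 7.56 and 7.40 to 11.27 and 11.18, and Ccnd1 (0.36 ± 0.08), whose call was lost without untreated replicate 1 (0.28). Mcm6 (-0.22 ± 0.11) did not pass. In untreated cells 32 of the 34 were brighter than the median gene. A second Top2a probe set, at a mean signal of 2.38, gave -0.09 where the one used gave -1.43.

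Lysosome genes fell in 17 of 25 cases and rose in 4, with a median of -0.43. All 25 were brighter than the median gene in untreated cells, a range in which falls were common. Naglu, a heparan sulphate-degrading enzyme, read 8.82 and 8.77 untreated and 7.38 and 7.13 treated, and Gusb, beta-glucuronidase, read 10.77 and 10.78 and 9.33 and 9.21. The transcription factors of lysosome genes differed, as Tfeb fell (-1.33 ± 0.10) and Mitf rose (0.54 ± 0.09). Integrin and adhesion genes rose in 14 of 29 cases and fell in 9, with a median of 0.28. Among the list's members, the largest rises after Slamf1 were in the leukocyte ligands Vcam1, from 6.41 and 6.16 to 9.13 and 8.94, and Icam1, from 9.17 and 9.08 to 11.75 and 11.75, and both were lower than under IFN-gamma/LPS (-1.44 ± 0.11 and -0.77 ± 0.07). Itgb8, an integrin gene that is not in the list and was added after its values were seen, rose further (4.98 ± 0.12). For E-cadherin, Cdh1, an IL-4-responsive adhesion gene, the combination arrays lay above those of every other group. Cdh1 read 5.64 and 5.88 untreated, 7.66 and 7.69 under the combination, 5.90 and 6.06 under IFN-gamma/LPS and 6.80 and 6.89 under IL-4/IL-13. Itga6, a laminin-binding integrin, fell from 10.45 and 10.35 to 8.16 and 7.88.

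Markers of macrophages were bright in the arrays compared. All 16 identity genes were brighter than the median gene in untreated cells and 15 in treated cells, where Cebpa was not, and the mean log2 signal of the list was 11.53 and 11.48 in the untreated arrays and 11.35 and 11.31 in the treated ones. Of them 6 rose and 9 fell. Adgre1, which encodes the macrophage antigen F4/80, read 12.87 and 12.89 untreated and 12.63 and 12.57 treated. Csf1r, the receptor for the macrophage growth factor, fell from 12.97 and 12.91 to 12.12 and 12.11, and the Fc receptor gene Fcgr1 rose by 1.63 ± 0.06. Itgam (-0.13 ± 0.07) did not pass.

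Markers of other cell types were mostly dim. In untreated cells, however, 6 of 10 microglia and 6 of 12 fibroblast markers were brighter than the median gene. In the dendritic cell list 54.5% rose and in the microglia list 50% fell, beside 20.3% and 25.4% of all genes. Of 11 dendritic cell markers 6 rose and 0 fell, namely Kmo (2.30 ± 0.11), Clec9a (1.83 ± 0.14), Fscn1 (1.78 ± 0.13), Cd209a (1.09 ± 0.11), Ccr7 (0.70 ± 0.13) and Itgae (0.37 ± 0.14), and the mean log2 signal of the list was 5.73 and 5.77 in untreated and 6.53 and 6.63 in treated arrays. The defining dendritic genes Zbtb46 (0.30 ± 0.12), Flt3 (0.22 ± 0.16) and Xcr1 (0.28 ± 0.14) did not pass, although Zbtb46 passed without either IFN-gamma/LPS array and Xcr1 without LPS/IL-4/IL-13 replicate 1 (0.46). Itgae lost its call without untreated replicate 1 (0.19), either IL-4/IL-13 array (0.37) or either LPS/IL-4/IL-13 array (0.33 and 0.42). Of 10 mast cell and basophil markers 2 rose, the histidine decarboxylase gene Hdc, from 5.81 and 5.99 to 10.45 and 10.36, and Gata2 (0.37 ± 0.11), while Kit (0.16 ± 0.14) and Ms4a2 (-0.19 ± 0.13) did not pass, and the list mean went from 5.18 and 5.17 to 5.66 and 5.82. Neutrophil markers had 3 up and 2 down of 14, led by S100a8 (1.16 ± 0.20) and Ngp (-0.90 ± 0.18), and their list mean lay between 6.15 and 6.21 in the 4 arrays. They had 2 up without untreated replicate 2 or LPS/IL-4/IL-13 replicate 1, and 1 down without any array but those of IL-4/IL-13.

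Microglia markers had 2 up and 5 down of 10, with Gpr34 (-1.64 ± 0.13) and Fcrls (-1.02 ± 0.10) falling most and a list mean between 6.68 and 7.10. Their rises numbered 1 without either untreated array or LPS/IL-4/IL-13 replicate 2 and 0 without LPS/IL-4/IL-13 replicate 1. Of 10 T and NK cell markers 0 rose and 1 fell, Cd4 (-1.04 ± 0.10), with a list mean between 5.25 and 5.34. B lymphocyte markers had 1 up, Igll1 (0.28 ± 0.11), and 1 down, Blnk (-1.03 ± 0.11), of 9, and a list mean between 5.99 and 6.09. Fibroblast markers had 2 up, Dcn (1.75 ± 0.11) and Lum (0.43 ± 0.13), and 2 down, Postn (-0.34 ± 0.12) and Bgn (-0.32 ± 0.08), of 12, with a list mean between 6.67 and 6.89. Erythroid markers had 2 of 4 up, Epb42 (0.40 ± 0.14) and Slc4a1 (0.40 ± 0.12), and a list mean between 5.29 and 5.66. Without untreated replicate 1 the calls of Gata2 (0.29), Igll1 (0.31), Lum (0.35), Postn (-0.25), Bgn (-0.27), Epb42 (0.34) and Slc4a1 (0.41) were lost, and without LPS/IL-4/IL-13 replicate 2 those of Gata2, Igll1, Lum, Postn, Epb42 and Slc4a1. The calls of Igll1, Epb42 and Slc4a1 were lost without untreated replicate 2 too, those of Igll1 and Slc4a1 without LPS/IL-4/IL-13 replicate 1, and that of Igll1 without any array of the other stimulations. Macrophages can express several of these genes, such as Hdc, Cd4, Blnk and Fscn1. The part of other cells in the changes described was not tested.

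The combination gave some genes a level outside that of all 3 other groups. By the rule that it differ from each of them in the same direction by the test, 588 genes were highest, 2.95% of those tested, and 358 were lowest, or 1.80%. The 3 comparisons share the combination arrays, so they are not independent. Ordered by the smallest of the 3 differences, Il19 came first, followed by Zfp459, a zinc finger gene at 5.04 and 5.30 untreated, 5.46 and 5.23 under IFN-gamma/LPS, 5.59 and 5.78 under IL-4/IL-13 and 9.72 and 9.47 under the combination. In Zfp459 the other 3 groups were close together and the combination stood apart from all of them. Hbegf and Ccl24 came next, then F2r, the thrombin receptor gene, at 5.55 and 5.68, 6.11 and 6.47, 6.28 and 5.95 and 9.51 and 8.86 in the same order of groups, and Gadd45a. In the lists above, 11 of the 35 IL-4/IL-13 and STAT6 genes, 11 of 30 chemokines, 7 of 24 feedback regulators and 0 of 31 interferon-stimulated genes were highest by this rule.

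Vsir, which encodes the T cell-inhibiting protein VISTA, led the genes lowest under the combination, at 12.05 and 12 untreated, 11.16 and 11.21 under IFN-gamma/LPS, 11.48 and 11.45 under IL-4/IL-13 and 8.37 and 8.46 under the combination. By contrast Pdcd1lg2, another inhibitory gene of the B7 family, was highest by the same rule. Cytip, a regulator of leukocyte adhesion, read 9.10 and 8.98, 10.72 and 10.80, 8.56 and 8.25 and 6.73 and 6.09 in that order, so that it lay above untreated cells under IFN-gamma/LPS and below them under the combination (-4.35 ± 0.17 between these treatments). N4bp2l1 (smallest difference -2.22), Bmp2, Pgm2l1 and the telomere gene Pot1b made up the rest, and Pot1b fell from 9.72 and 9.69 to 5.91 and 5.79.

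**Figure D5:**
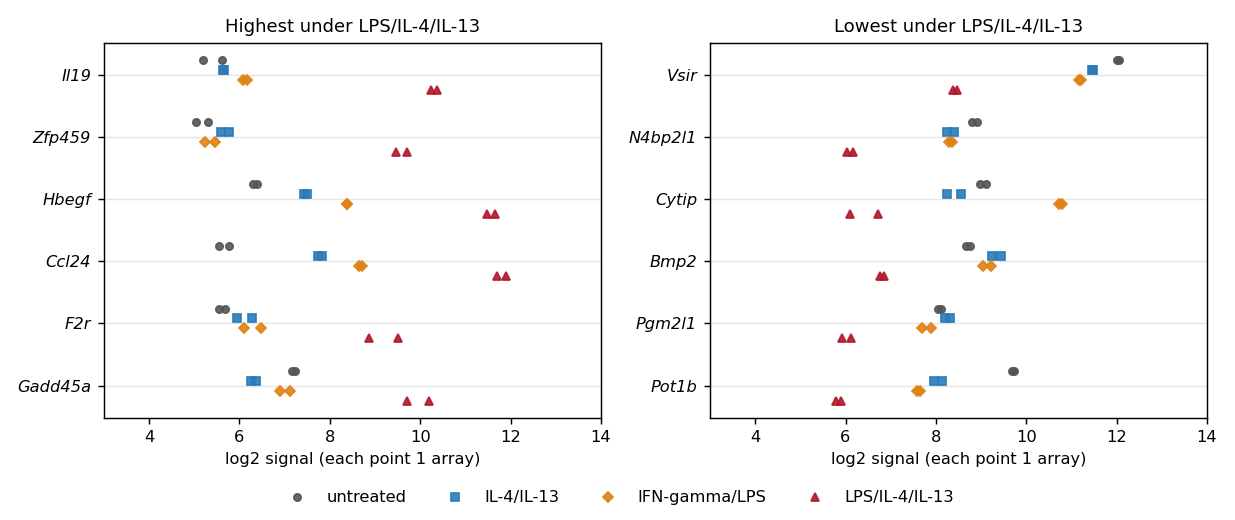
Log2 signal of each of the 8 arrays (horizontal axis) for the 6 genes highest and the 6 genes lowest under LPS/IL-4/IL-13 against each of the other groups, with 1 point per array and 1 colour and shape per group. In every gene drawn both combination arrays lie outside all 6 arrays of the other groups, by the widest margin in Il19 and Zfp459 upward and in Vsir downward.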

How the data were processed

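Total RNA of 8 macrophage samples was labelled with biotin and hybridised to Affymetrix mouse gene arrays, per the labels' protocols. The deposited values are used as log2 signal. That scale was read from the values (1.46 to 13.71), the labels speak of MAS5 signal, and how the authors corrected background and normalized is not given in the sources used. The number of arrays, 2 per group, limits the precision. The value table had 0 columns of other samples.

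Of 35556 probe sets, 21789 carried 1 symbol in the platform annotation, which can be old, 1621 carried several and 12146 none. Entrez identifiers of 21698 were found in RefSeq (GRCm38.p6) and 0 symbols needed an update. Where a gene had several probe sets (999 genes), its brightest over the 8 arrays stood for it, which left 19938 genes. Promoters, 250 bases before the gene start, came from RefSeq.

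All 4 groups entered 1 linear model in limma 3.58.1 under R 4.3.3 (eBayes with a mean-variance trend, 4 residual and 7.55 prior degrees of freedom). P-values were adjusted by Benjamini-Hochberg over the 19938 genes and called under 0.05. The fit was tested on simulated data.

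Named are the 10 called genes that changed most upward and the 10 most downward with no overlap of arrays, without predicted genes and small RNAs. Further named are members of each list (up to 4 called with the largest change, up to 2 called the other way, up to 2 that did not pass), 26 activation markers, and the 6 genes highest and lowest of all groups. Other members were named for their role after their values were seen. The comparison, its members and the lists were chosen with earlier results of these data known.

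The alternatives left out each array, dim genes or the other groups' arrays, normalized by quantiles or centred arrays, changed the variance model, blocked on replicate number, averaged probe sets, adjusted over all probe sets or tested against a fold of 2.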

Additional observations from a re-analysis of the deposited data

Results flagged for a closer look

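Probe sets that the comparison left out also differed between LPS/IL-4/IL-13 and untreated arrays, in a limma fit adjusted over all 35556 probe sets. Of the 1621 probe sets with several gene symbols, 145 (8.95%) were higher under the combination, 58 of them at least 2-fold and the largest by 5.50 on the log2 scale. In the same set 418 (25.8%) were lower, 70 of them at least 2-fold, with -3.20 the largest fall. Of the 12146 probe sets without a symbol in the platform annotation, 1072 (8.83%) were higher, 251 at least 2-fold and the largest by 6.59. Another 1749 (14.4%) were lower, 624 at least 2-fold, with -3.39 the largest fall. These signals lie outside the genes of the report, and what the probe sets measure was not examined. With 2 arrays per group, no array was tested for standing apart from its group.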

How the results depend on the processing

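Counts for the comparison with untreated cells (4042 genes higher, 5057 lower) stayed within 1.5 times under every alternative except the limma test against a fold of 2, with 754 higher and 929 lower (also the count lower at least 2-fold), and the fit without untreated replicate 1, with 2602 higher. Leaving out 1 array at a time gave 2602 to 4047 higher and 4170 to 5107 lower, and 1006 to 1102 and 1628 to 1845 at least 2-fold. Against IFN-gamma/LPS the fold test gave 147 higher and 142 lower, the fit of only the 4 arrays compared 1488 higher, and leaving out arrays 1558 to 2884 higher and 1183 to 1516 lower. Against IL-4/IL-13 they were 739 and 528 under the fold test, and 2397 to 2843 and 3718 to 4522 without an array. The fold test asks for more than a difference from 0, and the other causes were not tested.

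Of 265 named genes 227 were called, and 212 of these kept direction and call under every alternative except the fold test. A few that did not pass changed sign. These were Cyld (0.007) and Fth1 (0.067) after quantile normalization. Without 1 array they were Fos (-0.10 to 0.11), Flt3 (-0.02 to 0.46) and Ly96 (-0.055 to 0.225). Quantile normalization also gave a call to 6 named genes that had not passed, and 6 called ones lost theirs. Those that gained a call were B2m (0.151), C3ar1 (0.157), Itgam (-0.184), Itgax (0.457), Rasgrp4 (0.402) and Tirap (0.292). Of 38 lists the larger side turned in 4 under the fold test, in 2 without dim genes or untreated replicate 2, in 1 with no mean-variance trend, with the mean over probe sets or without untreated replicate 1, and in 0 under the others.

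With the replicate number as a replicate block, 9138 genes were called, 8931 of them among the 9099, and of the named genes Igf1 lost its call (-0.21, limma adjusted p = 0.0544). The labels do not say that a number pairs samples. Differences between replicates 1 and 2 correlated across genes at 0.22 between untreated and LPS/IL-4/IL-13 arrays, and over the other 5 pairs of groups at 0.07, 0.12, 0.13, -0.15 (untreated and IFN-gamma/LPS) and -0.36 (IFN-gamma/LPS and LPS/IL-4/IL-13). With 2 arrays per group and no detection calls, small changes of dim genes are the least certain.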
